A study of Drosophila melanogaster with 3 samples.

Results

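The genes described here are the male reproductive genes of Drosophila melanogaster named Sfp (seminal fluid protein), Acp (mostly accessory gland protein) or Mst (male-specific transcript), where a digit follows the prefix. Of 13986 protein-coding genes in the gene models, 69 carried such a symbol, namely 28 Sfp, 19 Acp and 22 Mst genes. Of these, 65 lay on the 6 chromosomes X, 2L, 2R, 3L, 3R and 4, to which every deposited peak belonged, beside 13945 protein-coding genes in all on the same chromosomes. The other 4 members were the Y-linked genes Mst77Y-4, Mst77Y-7, Mst77Y-9 and Mst77Y-13. No list held a peak on the Y chromosome, the sources do not say whether it was searched, and these 4 genes are left out of every share below.

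The prefix did not always mean a male gene. Acp1 and Acp65Aa are annotated as adult cuticle proteins and share only the first letters of the name with the accessory gland genes. They were kept because the symbols chose the members, and the shares are also given without them.

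Binding was measured by chromatin immunoprecipitation with sequencing (ChIP-seq) of Lola-RI, one isoform of the transcription factor Lola, tagged at its C terminus with enhanced green fluorescent protein (eGFP). The line lola-RI-GFP was stably transgenic, and whole wandering larvae of the third instar were used, with males and females pooled. The precipitation was made with an anti-GFP antibody, although the labels list lola as the antibody, and chromatin was sonicated to 200 to 800 bp. The 3 biological replicates formed 1 group with no comparison group, all carried the tagged protein, and neither the promoter that drives the transgene nor the number of larvae pooled is stated.

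Seminal fluid proteins are made mainly in the accessory glands of the adult male and are passed to the female at mating, where some of them change egg laying, sperm storage and receptivity. Most of the Mst genes are transcribed in the male germ line and encode proteins of the sperm tail or of sperm chromatin. In a wandering larva the accessory gland does not yet exist as an organ and its precursor lies in the genital disc, while the testis already holds spermatogonia and spermatocytes. Lola isoforms share a BTB domain and differ in their zinc fingers, and Lola is known for roles in axon guidance and in the maintenance of cell identity. In chromatin of whole larvae of both sexes, a site bound in few cells and a site bound in none cannot be told apart.

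A gene is called bound below where a peak summit lay within 500 bp of one of its annotated transcription start sites (TSSs). The main list was the authors' set of 9202 peaks, those kept at a threshold on the irreproducible discovery rate (IDR). Of the 65 members 3 were bound by this rule, Sfp26Ad, Mst36Fa and Mst85C. Each of these has a divergent neighbour, a gene on the opposite strand that starts upstream of one of its TSSs and runs away from that TSS. At Mst85C this holds for an internal TSS only, and the neighbour starts within Mst85C. The plus-strand sequences between the facing starts are shown because the summits are read against these starts. They are from RefSeq Release 6 of the genome (dm6), with every TATAAA on either strand in capitals.

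Sfp26Ad-Gpdh1, 2L:5943343-5943642: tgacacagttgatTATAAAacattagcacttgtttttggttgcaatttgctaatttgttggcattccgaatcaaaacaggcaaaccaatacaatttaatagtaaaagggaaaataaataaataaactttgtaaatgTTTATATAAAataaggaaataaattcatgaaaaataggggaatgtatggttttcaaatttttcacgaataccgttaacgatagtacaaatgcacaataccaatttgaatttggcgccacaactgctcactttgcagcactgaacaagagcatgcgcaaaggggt
Mst36Fa-CG31751, 2L:18676999-18677220: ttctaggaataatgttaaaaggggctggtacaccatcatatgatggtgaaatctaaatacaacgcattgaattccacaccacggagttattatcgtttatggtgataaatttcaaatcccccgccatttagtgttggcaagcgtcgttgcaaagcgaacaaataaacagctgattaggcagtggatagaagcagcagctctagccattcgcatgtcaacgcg
Nmdmc-Mst85C, 3R:9050556-9050820: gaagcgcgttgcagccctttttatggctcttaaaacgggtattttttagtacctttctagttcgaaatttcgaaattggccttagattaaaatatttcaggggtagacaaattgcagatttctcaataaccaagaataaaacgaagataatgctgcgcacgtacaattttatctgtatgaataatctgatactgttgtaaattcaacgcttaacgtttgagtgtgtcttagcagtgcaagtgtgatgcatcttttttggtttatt
Mst84Db-Mst84Da, 3R:7365628-7365849: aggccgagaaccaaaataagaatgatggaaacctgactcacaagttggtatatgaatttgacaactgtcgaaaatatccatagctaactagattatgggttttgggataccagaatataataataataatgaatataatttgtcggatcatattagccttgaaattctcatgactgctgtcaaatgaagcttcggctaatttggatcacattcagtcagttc

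The first of these was printed for the 300 bases next to the Gpdh1 start, out of the 338 bases between both starts. The second lies between Mst36Fa and the nearer of the CG31751 starts. The third lies within an intron of the longer Mst85C transcript, and the IDR summit is its base 238. The last is the stretch between a pair of unbound sperm tail genes that face each other, 222 bases with no summit of the pooled list inside. None of the 4 stretches overlapped an annotated exon. Their GC content was 32%, 42.3%, 35.1% and 34.7% in the order printed. Only the first held TATAAA, and none held GAGAG or TATCGATA.

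The members were rarely bound. The 3 bound members made up 4.62% of the 65 (95% Wilson interval 1.58 to 12.7%, counting error over genes only), against 34.0% of all protein-coding genes, 4743 of 13945. Leaving out Acp1 and Acp65Aa gave 3 of 63, or 4.76%. By family, 1 of 28 Sfp genes was bound (3.57%, Wilson interval 0.633 to 17.7%), none of the 19 Acp genes, which allows a share of up to 15.8%, and 2 of the 18 Mst genes on these chromosomes (11.1%, Wilson interval 3.1 to 32.8%). These intervals overlap, so no order of the families is read from them. The upper bound for Sfp and the Acp limit lie below the share of all genes in the IDR list and in each shortened replicate list described next, whereas that for Mst lies below the 34.0% of the IDR list but not below the 32.5% of replicate 2. Gene length was not held equal in these comparisons. Of protein-coding genes no longer than the members' median of 554 bp 8.56% were bound, and of those from there to 1000 bp 16.3%. The intervals and limits treat genes as independent, although 31 members lay in 10 clusters described below. They may therefore be too narrow.

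The 3 replicates gave the same 3 bound members. Each replicate list held 30000 peaks, and each was shortened to its 9202 highest-scoring peaks for a comparison at equal length. Sfp26Ad, Mst36Fa and Mst85C were the bound members in every shortened list, so the share was 4.62% ± 0 (SD, n = 3). The shares of all protein-coding genes bound in these lists were 33.7% in replicate 1, 32.5% in replicate 2 and 36.2% in replicate 3, a mean of 34.1% ± 1.89 (SD, n = 3). Since the IDR list rests on these replicates too, it is no separate measurement.

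**Figure D1:**
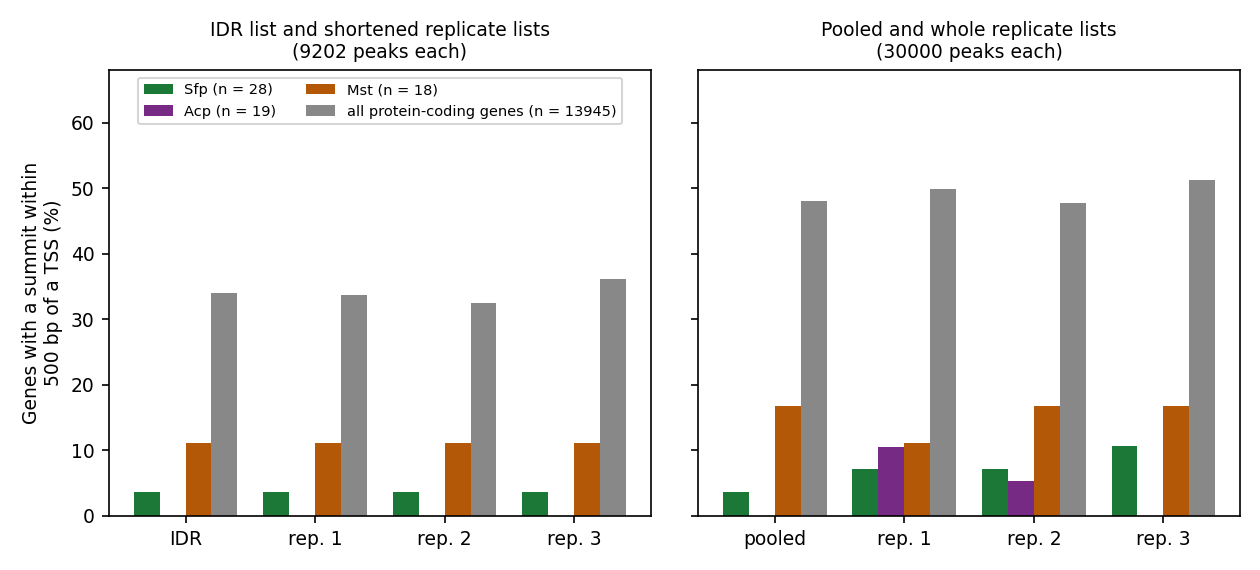
Share of genes with a summit within 500 bp of a TSS (percent, vertical axis), for the Sfp, Acp and Mst families and for all protein-coding genes, in the IDR and shortened replicate lists and in the pooled and whole replicate lists. Each family lies below all protein-coding genes in every list, with the families at 0 to 11.1% and all genes at 32.5 to 36.2% in the lists of 9202 peaks.

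Most of the bound members had a summit that lay nearer to another gene. Mst85C was the only member whose own TSS was the nearest to its IDR summit, 1.54% of the 65, against 27.1% of all protein-coding genes. For Sfp26Ad and Mst36Fa the TSS of the divergent neighbour was nearer, which makes 2 of the 3 bound members, against 960 of the 4743 bound protein-coding genes (20.2%). With 3 genes the difference between these shares cannot be read as a property of the families. All 3 summits also lay within 500 bp of the neighbour, whereas every such summit was shared with another gene in 2242 of the 4743 bound genes (47.3%).

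Sfp26Ad, a seminal fluid gene at 2L:5942623-5943304 on the minus strand, had its IDR peak at 2L:5943554-5943893. The summit, at position 5943723, lay 419 bp upstream of the nearest Sfp26Ad TSS and 80 bp downstream of the TSS of Gpdh1, which encodes a glycerol-3-phosphate dehydrogenase. This position is in the 5′ untranslated region (UTR) of Gpdh1. The facing starts are 339 bp apart. By the authors' score the peak ranked 3507 of 9202. In the replicates the summit lay 407, 478 and 422 bp upstream of Sfp26Ad in replicates 1, 2 and 3, at ranks 3007, 3429 and 4671. In each replicate it lay inside Gpdh1, 68, 139 and 83 bp from that start.

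Mst36Fa, at 2L:18675183-18676998 on the minus strand, had its IDR peak at 2L:18677378-18677691 with the summit at position 18677458, rank 5022. This was 460 bp upstream of the Mst36Fa TSS and 100 bp downstream of a TSS of CG31751, in the 5′ UTR of that gene. CG31751 has another start closer to Mst36Fa, 223 bp away, while the start nearest to the summit is 360 bp from Mst36Fa. The summit lay 499 bp upstream in replicate 1 and 492 bp in replicate 2, just inside the limit of 500 bp, at ranks 4240 and 5584. Replicate 3 had a pair of summits, 273 and 472 bp upstream, at ranks 4779 and 6963. All 4 replicate summits were nearer to CG31751, at 50 to 139 bp from one of its starts. The adjacent Mst36Fb, which lies on the far side of Mst36Fa, had its nearest IDR and pooled summit at 2364 bp, and its nearest replicate summit at 2177 bp in replicate 3.

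Mst85C, at 3R:9048645-9052231 on the plus strand, was the longest member at 3587 bp and has a pair of annotated starts. Its IDR peak at 3R:9050641-9050911 had the summit at position 9050793, rank 4232, 28 bp upstream of the internal start at position 9050821. Nmdmc, which encodes a mitochondrial enzyme of folate metabolism, starts 266 bp upstream of this internal start on the opposite strand, and the summit lay 238 bp from that Nmdmc start. Nmdmc has other starts at positions 9049247 and 9048651, also within Mst85C, the latter 6 bp from the first Mst85C start. The summit lay 83, 28 and 25 bp upstream of the internal Mst85C start in replicates 1, 2 and 3, at ranks 4334, 5029 and 3851. Each of these was closer to Mst85C than to Nmdmc. The upstream start of Mst85C was not bound, so that the gene dropped out where only the first TSS of a gene was counted.

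**Figure D2:**
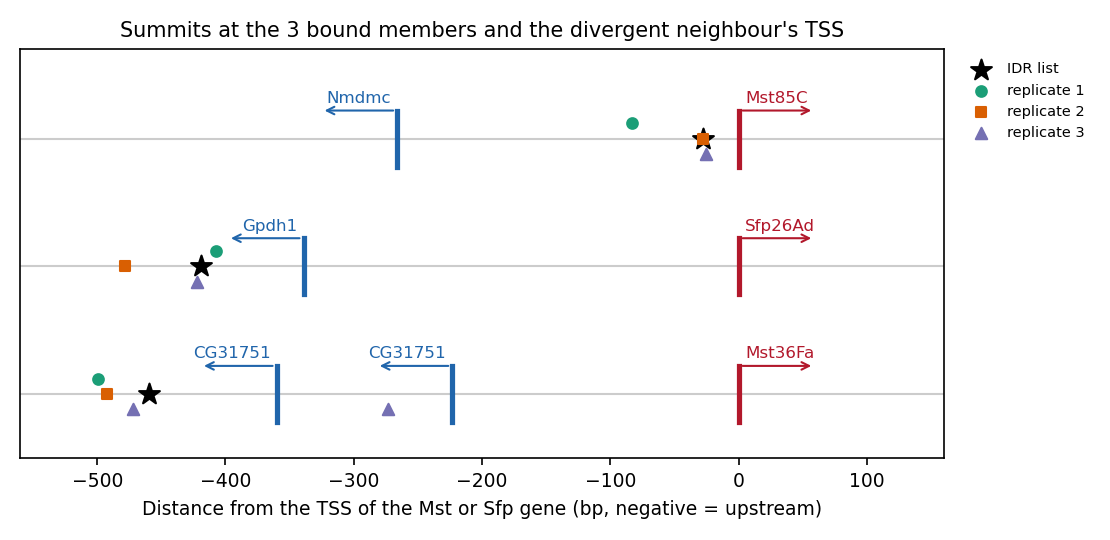
Summits of the IDR list and of each replicate at Mst85C, Sfp26Ad and Mst36Fa against distance from the member's TSS (bp, negative upstream, horizontal axis), with the starts of the divergent neighbours as blue bars and arrows for the direction of transcription. The summits at Sfp26Ad and Mst36Fa lie beyond a start of the neighbour, 407 to 478 bp and 273 to 499 bp from the member, and those at Mst85C lie 25 to 83 bp from its internal start.

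A divergent neighbour was common to the bound members and uncommon in the families. A divergent protein-coding TSS within 1000 bp upstream was found for 10 of the 65 members (15.4%), against 36.2% of all protein-coding genes. All 3 bound members were among the 10 (30%, Wilson interval 10.8 to 60.3%). None of the 55 other members was bound, which allows a share of up to 5.45%. Over all protein-coding genes, 50.3% of those with such a neighbour were bound and 24.8% of those without. The neighbour itself was bound in 4 of the 10 cases, and 3 of these 4 members were the bound ones. At those 3 the same summit counted for both genes, so their joint binding is no separate observation. The fourth was Mst77F, a sperm chromatin protein gene whose nearest summit lay 726 bp away and whose divergent neighbour Pka-R1 starts 938 bp upstream. The other 6 were Mst84Da and Mst84Db, which face each other across 223 bp, Mst57Da beside alpha4GT2, Sfp24F beside CG15432, Sfp26Ac beside CG43185 and Sfp77F beside CG43931.

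The pooled list, which held 30000 peaks called on the 3 replicates together, added Mst87F. This gave 4 of 65 members (6.15%), against 48.1% of all protein-coding genes. Mst87F encodes a cysteine- and glycine-rich protein of the sperm tail. Its pooled peak at 3R:13828108-13828571 ranked 18376 of 30000, with the summit 332 bp upstream in an exon of the non-coding gene lncRNA:CR43300. The summit was 303 bp upstream in replicate 2 and 342 bp in replicate 3, at ranks 20783 and 13981, whereas the nearest summit of replicate 1 was 556 bp away. In each list where it was counted, Mst87F was the gene with the nearest TSS.

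The whole replicate lists each held 6 bound members (9.23%), against 49.9% of all protein-coding genes in replicate 1, 47.7% in replicate 2 and 51.2% in replicate 3. Beyond Sfp26Ad, Mst36Fa and Mst85C they did not hold the same members. Over the 65 members, 3 were bound in all 3 whole lists, 3 in a pair of lists, 3 in a single list and 56 in none. The same count was not made over all protein-coding genes, so no better or worse agreement than usual is read from it. By family the mean share was 8.33% ± 2.06 for Sfp, 5.25% ± 5.25 for Acp and 14.8% ± 3.23 for Mst (SD, n = 3), and for all protein-coding genes it was 49.6% ± 1.77.

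Among the seminal fluid genes the added summits had low scores. Sfp24F had a summit 386 bp upstream in replicate 1 (rank 23080) and 310 bp upstream in replicate 3 (rank 24169), both within 23 bp of the TSS of its divergent neighbour CG15432. Sfp84E had one 425 bp upstream in replicate 2 (rank 28383) and 22 bp upstream in replicate 3 (rank 24944), with no other gene within 500 bp. Acp63F had one 173 bp inside the gene in replicate 1 (rank 27476), and Acp76A, a serpin gene, had one 219 bp inside in replicate 2 (rank 29088). Acp98AB had one 444 bp downstream of its TSS in replicate 1 (rank 20966), which lay 92 bp from the TSS of HSPBAP1. None of these 7 summits ranked among the 9202 highest of its list.

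Some members lay just outside the limit of 500 bp. In the IDR list these were Mst77F at 726 bp, Acp32CD at 744 bp and Sfp24F at 979 bp, which brought the count within 1000 bp to 6 of 65 (9.23%), against 37.9% of all protein-coding genes. In the pooled list Acp54A1 at 738 bp, Acp63F at 739 bp, Sfp87B at 777 bp and Sfp24F at 780 bp were as close. At Acp32CD the summit lay at 769, 710 and 797 bp in replicates 1, 2 and 3, and at Mst77F at 771, 730 and 726 bp. At both genes the summit was beyond the limit in all 3 replicates. The others varied more. Acp54A1 had its nearest summit at 738, 2888 and 737 bp in replicates 1, 2 and 3, and Sfp87B at 798, 3022 and 2369 bp. Acp63F had it at 173, 715 and 713 bp and Sfp24F at 386, 797 and 310 bp, so that these genes fell within the limit in some replicates only.

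For most members the nearest summit was far away. The median distance from a TSS to the nearest IDR summit was 11125 bp over the 65 members, against 3146 bp over all protein-coding genes. It was 9403 bp for Sfp, 13130 bp for Acp and 17548 bp for Mst genes. In the pooled list the medians were 6405 bp for the members and 659 bp for all genes. In replicates 1, 2 and 3 they were 4717, 5806 and 7155 bp for the members, against 504, 733 and 427 bp for all genes. No IDR summit lay within 10000 bp of 34 members (52.3%), against 26.9% of all genes, and no pooled summit within that distance of 27 members (41.5%), against 17.9%. Clustered members can have the same nearest summit, such as Mst84Dc and Mst84Dd at 17998 and 17098 bp from 1 IDR summit. These medians and counts therefore do not rest on separate loci.

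**Figure D3:**
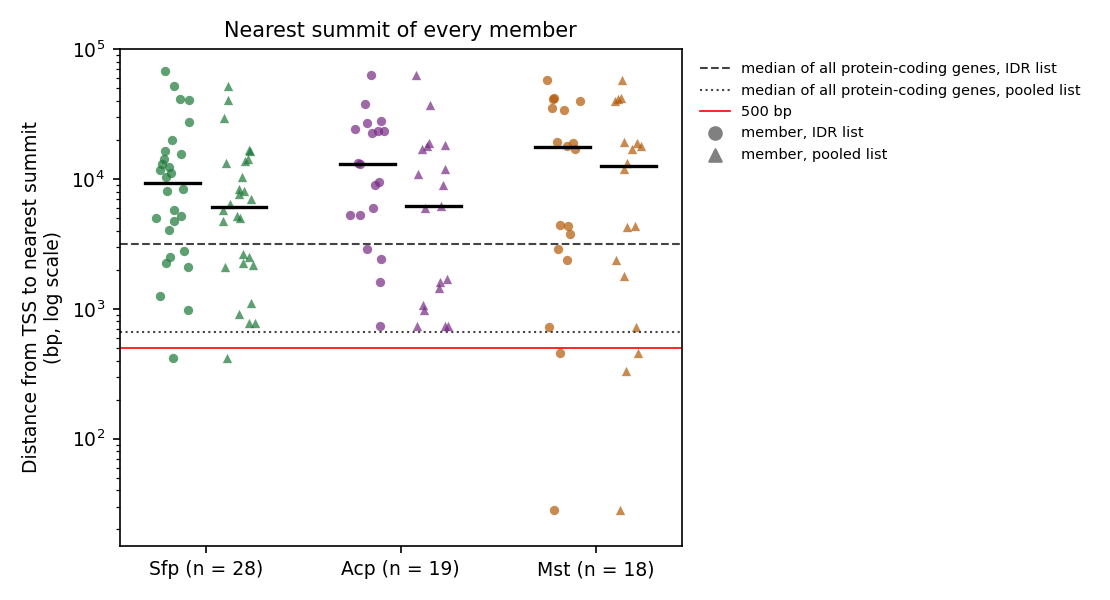
Distance from each Sfp, Acp and Mst gene to the nearest summit (bp, log axis), 1 circle per gene for the IDR list and 1 triangle for the pooled list, with family medians as bars and the medians of all protein-coding genes and 500 bp as lines. The bound members lie at the lower end and the medians to the IDR list are 9403, 13130 and 17548 bp for the Sfp, Acp and Mst families.

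The farthest members were Acp33A and Mst33A, which lie together inside the gene kek2, and Sfp35C, at 63261, 58416 and 52405 bp from the nearest pooled summit. Replicates 2 and 3 gave 63222 and 63283 bp for Acp33A, whereas replicate 1 had a summit 2404 bp away. For Mst33A the values were 2441 bp in replicate 1 and 58377 and 58438 bp in replicates 2 and 3. For Sfp35C they were 9706 bp in replicate 1 and 46050 and 52405 bp in replicates 2 and 3. Of the adult cuticle genes, Acp1 was 37804 bp from an IDR summit and 37070 bp from a pooled summit. Acp65Aa was 27806 bp from an IDR summit but 1068 bp from a pooled one, with 1088, 2550 and 1068 bp in replicates 1, 2 and 3. Neither cuticle gene was bound in any list.

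Some members with known functions were chosen for description after their values were seen. Acp26Aa encodes ovulin, a prohormone-like protein that stimulates ovulation, and its nearest IDR summit was 13193 bp away. Acp36DE, needed for sperm storage, was 6038 bp from an IDR summit and Acp29AB, a lectin gene, 8941 bp. Acp62F, which encodes a protease inhibitor, was 27137 bp from an IDR summit, 6252 bp from a pooled summit and 3765 bp from a summit of replicate 1. The sex peptide gene SP (formerly Acp70A) and the protamine-like genes ProtA and ProtB fall outside the symbol rule, and their nearest IDR summits were 72919, 29727 and 31836 bp away.

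**Figure D4:**
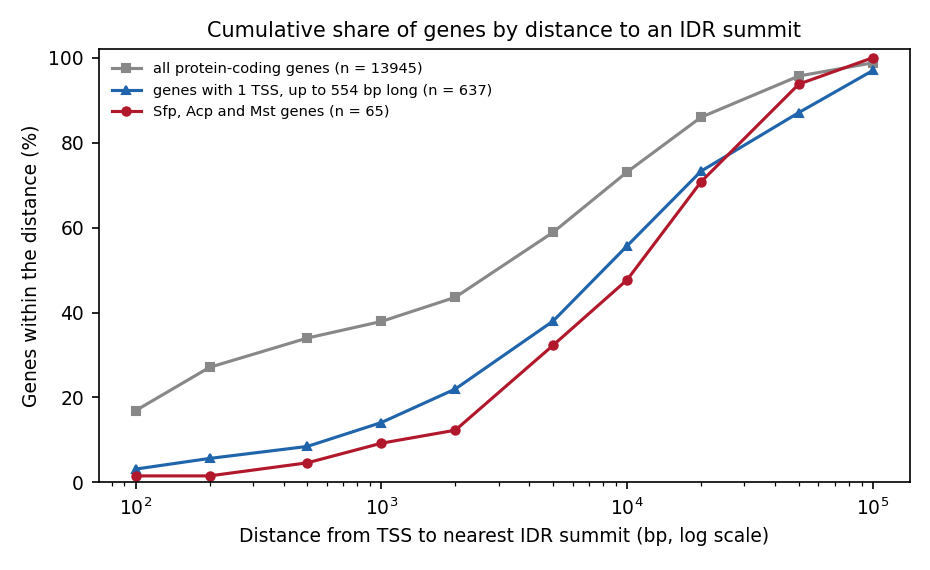
Cumulative share of genes (percent, vertical axis) with an IDR summit within a given distance of a TSS (bp, log axis), for the 65 members, for all 13945 protein-coding genes and for the 637 genes with 1 TSS and a length of up to 554 bp. Within 10000 bp the members reach 47.7%, the short genes 55.7% and all genes 73.1%.

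The members were short, with simple gene models, and short genes were less often bound. The median length was 554 bp (447.5 bp for Sfp, 696 bp for Acp and 1096.5 bp for Mst), against 2166 bp over all protein-coding genes. A single TSS was annotated for 90.8% of members and 73.5% of all genes, and 29.2% against 15.2% had a single exon. Of the protein-coding genes no longer than 554 bp, 56 of 654 were bound (8.56%), against 0 of 33 members, which allows a share of up to 9.09%. From there to 1000 bp the shares were 16.3% of all genes and 1 of 17 members (5.88%, Wilson interval 1.05 to 27.0%), and from there to 3587 bp they were 31.8% and 2 of 15 members (13.3%, Wilson interval 3.74 to 37.9%). For genes with 1 TSS and no more than 554 bp, 54 of 637 were bound (8.48%), against 0 of 32 members, which allows up to 9.38%. Of these 637 genes 55.7% had an IDR summit within 10000 bp, against 47.7% of all members. In each of these ranges the members' share was the lower one, but the share of all genes lay within its interval or limit. Each range holds few members, so the ranges cannot decide whether members differ from genes of like length. Of all genes up to 3587 bp long, 26.8% were bound, against 4.62% of the members (Wilson interval 1.58 to 12.7%). That wider range does not match the members' lengths, since 33 of 65 members but 654 of 9356 genes were no longer than 554 bp. Whether length accounts for the low share was not tested.

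Another gene's TSS lay within 500 bp of 21 members (32.3%) and of 34.4% of all protein-coding genes. By family this held for 46.4% of Sfp, 10.5% of Acp and 33.3% of Mst genes. Of those 21, 3 were bound (14.3%, Wilson interval 4.98 to 34.6%), against 50.7% of all genes so placed. Of the other 44 none was, which allows a share of up to 6.82%, against 25.2%. Gene length was not held equal between members and all genes in these shares. A bound protein-coding gene lay within 5000 bp of 21 members (32.3%) and of 45.3% of all genes. For 44 of the 62 unbound members (71%) the nearest IDR summit lay within 500 bp of the TSS of another gene, non-coding genes included, against 64.1% of all unbound protein-coding genes.

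The members were unevenly spread over the genome. On 2L lay 28 of the 65 (43.1%), against 19.1% of all protein-coding genes, 19 lay on 3R, 10 on 3L and 8 on 2R. None lay on X, which holds 15.7% of all protein-coding genes, or on 4. Another gene contained 18 of the members (27.7%), against 13.4% of all genes. Examples are the 4 Sfp24B genes inside Drgx, Sfp33A2, Sfp33A3 and Sfp33A4 inside Pde1c, and Sfp87B inside svp.

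With gaps of up to 10000 bp between neighbours, 31 members formed 10 clusters, none of which held an IDR summit and 9 of which held no pooled summit. The clusters were short, and no share was computed for gene groups of like span, so these counts are a description. The exception was the pair Acp24A4 and Sfp24C1, with 3 pooled summits between its ends. The cluster of the sperm tail genes Mst84Da to Mst84Dd, at 3R:7363307-7366262, lay in a gap of 90490 bp between pooled summits and of 127274 bp between IDR summits. In replicates 1, 2 and 3 the nearest summit to Mst84Dd was 17115, 17066 and 17099 bp away. Mst98Ca and Mst98Cb, also sperm tail genes, lay in a gap of 47181 bp between pooled and of 290900 bp between IDR summits. There the replicates did not place the nearest summit alike, with 2069, 2074 and 14255 bp from Mst98Ca.

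The gaps at the other clusters were as follows. Mst57Da, Mst57Db, Mst57Dc and Sfp96F lay in a gap of 90103 bp between pooled summits. Sfp53D with 4 Acp53 genes lay in one of 38294 bp. Replicate 2 had a summit 23116 bp from Mst57Da and 14504 bp from Acp53C14c, against 42358 and 18194 bp in the pooled list. The cluster of Acp26Aa, Acp26Ab and Sfp26Ac lay in a gap of 25021 bp, the Sfp24B cluster in one of 23532 bp and 3 of the Sfp33A genes in one of 15643 bp. Acp33A and Mst33A lay in a gap of 207786 bp, the widest of the 9 between pooled summits, although replicate 1 had a summit 2404 bp from Acp33A. Mst36Fa and Mst36Fb lay in a gap of 11347 bp, whose end is the summit in CG31751 described above.

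Promoter sequence was described by 3 motifs, each searched on both strands in the 300 bp from 250 bp upstream to 50 bp downstream of the first TSS. GAGAG, the letters of a GAGA element, was found in 7 of 65 members' promoters (10.8%) and in 29.7% of all protein-coding promoters. It was found in 4 of 28 Sfp, 3 of 19 Acp and 0 of 18 Mst promoters. TATAAA, the letters of a TATA box, was found in 38 members' promoters (58.5%), against 45.8% of all, with 67.9% for Sfp, 63.2% for Acp and 38.9% for Mst. TATCGATA, the letters of a DNA replication-related element, was found in 0 of 65, against 9.36% of all. In windows reaching 50 bp to each side of the 3 bound members' IDR summits none of these motifs was found, and over all 9202 IDR summits they were found in 16.5%, 16.9% and 1.52%. No motif is contained in another, and no match says only that these letters are not in the window.

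Other genes of male reproduction were taken from 4 lists outside the symbol rule. Of 29 seminal fluid genes 4 were bound (13.8%), namely Gld (glucose dehydrogenase), Esp, NLaz (a lipocalin) and hdly. Of 38 sperm and spermatid genes 3 were bound (7.89%), Pif1A, t-cup and m-cup, with the summit of Pif1A shared with Pif1B. Of 24 genes of testis transcription and meiosis 5 were bound (20.8%), among them Caf1-55 and mip40, subunits of a testis meiotic arrest complex, twe, a meiotic phosphatase, bgcn, and bol, an RNA-binding protein of meiosis whose summit was nearer to Dhpr. Of 15 regulators of the accessory gland and male genital disc 5 were bound (33.3%), dsx, dve, tra2, msi and EcR, each with its own TSS the nearest. The share of all protein-coding genes was 34.0%. No interval was computed for these lists and each share rests on 3 to 5 bound genes. No difference from all genes or between the lists is therefore read from them, and they were not compared with genes of like length. In the shortened lists of replicates 1, 2 and 3 the share of seminal fluid genes was 13.8% each time, that of the sperm and spermatid genes 5.26%, 7.89% and 10.5%, that of the testis genes 20.8%, 20.8% and 16.7%, and that of the regulators 33.3%, 46.7% and 40%.

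The summit at dsx, the sex determination transcription factor, lay 13 bp upstream of its TSS at rank 2963 of 9202. That of EcR, the ecdysone receptor, lay 47 bp upstream at rank 8000, and that of dve, a homeobox gene, 160 bp upstream at rank 5187. Gld had the highest rank among the genes listed here, 334, with its summit 74 bp upstream. By comparison the 3 bound Sfp and Mst genes ranked 3507 to 5022.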

How the data were processed

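ChIP-seq peaks of Lola-RI-eGFP were compared with gene starts in 3 biological replicates of 1 group. The authors called peaks in each replicate and on the pooled replicates, and deposited an IDR list, per the deposited descriptions. No aligner, peak caller or IDR threshold is named in the sources. A control library was not analysed here. Positions are 1-based on dm6, the build in the labels. The deposited lists carry a score per peak, computed by the authors on an unstated scale, which served only for ranks within a list. The −log10 q value in the deposited lists was not used for ranking. The 9202 IDR peaks were the top of the pooled list by score. A replicate or pooled list of 30000 peaks may be a fixed length, so the lists do not follow library strength, and sequencing depth is unknown.

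Summits (peak start plus summit offset) were compared with every TSS of the Ensembl 115 gene models (18164 genes on 6 chromosomes) in Python 3.11.15 with pandas 2.3.3, numpy 2.4.6 and scipy 1.17.1. Figures were drawn with matplotlib 3.10.9. Distance code was checked on simulated summits. A share has a Wilson 95% interval, and a share of 0 the limit of 3 counts. No test was run, since there is 1 group and genes are not replicates. The members and gene lists were chosen with earlier results of these data known. The genes named are the members with a summit within 500 bp in any list, the adult cuticle genes, the nearest and farthest 3 of the rest, the owners of the nearest TSS and the bound genes of each list. Other members, named for clusters, host genes and known roles, were chosen after their values were seen.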

Additional observations from a re-analysis of the deposited data

How the results depend on the processing

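The peak lists hold no reads, the control was not analysed here, and whole larvae of both sexes were used. Counts of 0 to 3 genes set wide intervals, and the IDR list is not independent of the replicates.

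Within 250 bp, or with the peak overlapping the TSS, or with a summit counted for the gene of the nearest TSS only, 1 member (Mst85C) was bound, with 0 Sfp and 1 Mst genes. Over all protein-coding genes these settings gave 29.6%, 28.2% and 27.1%, against 34.0%. Within 1000 bp there were 6 members, with 2 Sfp and 1 Acp genes, and 37.9% of all genes. The whole lists of replicates 1, 2 and 3 each gave 6, with 2, 2 and 3 Sfp genes, and 2 Acp genes in replicate 1 and 1 in replicate 2. With the first TSS only, and in the higher-scoring 50% of the IDR list, 2 members were bound, and 1 Mst gene each time. Over all protein-coding genes the first TSS only gave 4408, the 50% list 2787 and the whole list of replicate 3 7134, against 4743. Members with a summit nearer to another gene numbered 0 within 250 bp and with peak overlap, and 1 in the 50% list. They numbered 4 within 1000 bp and in the whole list of replicate 1. Over all bound protein-coding genes this held for 960 of 4743 in the IDR list (20.2%) and 1051 of 6964 in that replicate list (15.1%). For the other windows, peak overlap and the 50% list it was not computed over all genes. In the pooled list, 4 bound members became 1 within 250 bp and with peak overlap, 12 within 1000 bp and 2 by the nearest TSS only. Over all protein-coding genes the pooled share was 48.1%, and 41.3% by the nearest TSS only. It was not computed for the other pooled settings.

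Leaving out each replicate in turn, with a gene counted where both other shortened lists bound it, gave 3998 to 4224 protein-coding genes. The same 3 members were bound each time. That count was fixed beforehand, because every shortened list already held exactly these 3, so it is no further check. Counting SP, ProtA and ProtB, or the 4 Y-linked genes, as members left 3 bound, and both choices were made after seeing the data. For the Y-linked genes no other outcome was possible, since no list held a peak on the Y chromosome. Shortened replicate lists and the removal of Acp1 and Acp65Aa also left 3. Adding or removing unbound genes cannot change the number bound, so these changes of membership are no check of it. The settings that change the window, the list or the starts alter, by their own construction, which summits or starts can count. No paired analysis was possible because there was 1 group and no comparison between groups.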
